A study of Mus musculus with 4 samples.

Results

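Guanylate-binding proteins (GBPs) are large GTPases whose genes are induced by interferons. The 9 mouse members described here (Gbp2, Gbp2b, Gbp3, Gbp4, Gbp5, Gbp6, Gbp7, Gbp8 and Gbp9) were taken by symbol from 32285 counted genes. They were measured by droplet single-cell RNA sequencing in CD45+ leukocytes, enriched with magnetic beads from the colon of mice with colitis. Colitis was brought about by 7 days of 2% dextran sulfate sodium (DSS) in the drinking water, a salt that damages the epithelial lining, and tissue was taken on day 8. The labels give an age of 10 weeks, and 3 mice were mixed into each of 4 samples. The study covered wild-type mice and mice that lack the aryl hydrocarbon receptor (AhR) in all cells, both on the C57BL/6 background. The labels do not give the genotype of any sample, so the samples are numbered 1 to 4, no genotypes were compared, and each value is given per sample. No sample of untreated mice was analysed here.

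GBPs act inside infected or stimulated cells. They assemble on the membranes of intracellular bacteria and of parasite vacuoles and help to expose bacterial lipopolysaccharide to inflammatory caspases, which start the form of cell death called pyroptosis. Interferon-gamma, made mainly by natural killer (NK) and T cells, induces their transcription, in part through the factor IRF1, and type I interferons can do so too. In the inflamed gut, monocytes and macrophages are known responders to interferon-gamma.

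The samples held 8493 to 13730 deposited cells and 72509408 to 135516016 UMIs (unique molecular identifiers, each standing for a captured transcript). Quality filters kept 39550 of 45229 cells, and 31178 of these (78.8%) were placed in a class by their marker genes, none of which is a GBP. The class names stand for "-like" cells and rest on those markers alone: for example, macrophages were gated on C1qa, C1qb, Mrc1 and Adgre1 and others, and monocytes on Ly6c2, Ccr2 and Vcan and others. In the classes described here, each class's own markers were among its 10 leading genes and no other class's were, except that cells between monocytes and macrophages carried markers of both. A class was read in a sample where it held at least 50 cells: 10 classes were read in all 4 samples and 17 in at least 1. Fibroblasts, endothelial cells and epithelial cells do not carry CD45 and are cells that passed through the bead selection. Pairs of samples shared 0.271% to 0.423% of cell barcodes. Levels are CPM (counts-per-million): the UMIs of a gene were summed over the cells of a class within a sample and divided by all UMIs of those cells. They are given with 95% exact Poisson intervals in brackets, which cover counting error only. Transcripts differ in how well they are captured, so levels are compared between cells and not between genes.

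The members lie in 2 groups on the GRCm38 assembly. On the plus strand of chromosome 3 lie Gbp5 (chr3:142493978-142522344), Gbp7 (chr3:142530342-142550149), Gbp3 (chr3:142560026-142573209), Gbp2b (chr3:142594847-142619179) and Gbp2 (chr3:142620602-142638008). On the minus strand of chromosome 5 lie Gbp8 (chr5:105014150-105139540), Gbp9 (chr5:105077630-105139539), Gbp4 (chr5:105115767-105139586) and Gbp6 (chr5:105270702-105293698). Of the length of Gbp4, 99.8% lies within Gbp8 on the same strand, and Gbp9 lies wholly within Gbp8, although only 0.814% of the exon bases of Gbp4 are shared with Gbp8. Where reads in introns are counted, reads of these 3 genes could be assigned to each other. Among stretches of 60 bases in the last 500 bases of its transcripts, Gbp6 shared 39.6% with another counted gene (Gbp10, Gbp4 or Gbp9) and Gbp4 shared 7.49%, against 0% to 2.94% for the other 7 members. The counts of Gbp6 are therefore the least certain. Over all kept cells the members held 63596 UMIs for Gbp2, 14400 for Gbp7, 12680 for Gbp3, 11769 for Gbp4, 8432 for Gbp5, 8284 for Gbp8, 3479 for Gbp9, 3315 for Gbp6 and 1072 for Gbp2b, and these numbers set how finely each could be read.

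RefSeq promoters (GRCm38.p6, from 250 bases before to 50 bases after the start of transcription) were at hand for 5 of the 9 members, those on chromosome 3, and were searched on both strands for 2 motifs of interferon signalling. The interferon-stimulated response element core (ISRE core, GAAANNGAAA, or TTTCNNTTTC on the other strand) is a pattern bound by interferon regulatory factors, and the gamma-activated sequence (GAS, TTCNNNGAA) is a pattern found in promoters that interferon-gamma induces. An ISRE core match was found in at least 1 promoter of all 5 members, against 3.99% of 27025 genes, and in 5 of their 6 promoters, against 3.44% of 32851 promoters of the same length. A GAS match was found in Gbp5 and in Gbp7, 2 in each, against 9.55% of genes. In these stretches around the ISRE core, printed 5′ to 3′ on the plus strand of chromosome 3, capitals mark the match, and each match reads on the minus strand.
Gbp2, chr3:142620592-142620625: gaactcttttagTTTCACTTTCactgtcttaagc
Gbp2b, chr3:142594698-142594731: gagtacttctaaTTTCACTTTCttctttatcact
Gbp3, chr3:142559987-142560026: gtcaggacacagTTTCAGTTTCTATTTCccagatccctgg
Gbp5, chr3:142496757-142496790: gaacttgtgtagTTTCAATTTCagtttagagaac
Gbp7, chr3:142530271-142530304: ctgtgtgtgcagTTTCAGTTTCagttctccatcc
The match ended 50 bases before the start of transcription in Gbp2, 128 before in Gbp2b, 156 before in Gbp5 and 44 before in Gbp7, and Gbp3 held 2 overlapping matches that ended 36 and 30 bases before it. A further RefSeq start of Gbp3 had no match in its window. The 250 bases before the start are shown whole for the 2 members with both motifs, again 5′ to 3′ on the plus strand, with the GAS matches and the ISRE core in capitals.
Gbp5, chr3:142496684-142496933: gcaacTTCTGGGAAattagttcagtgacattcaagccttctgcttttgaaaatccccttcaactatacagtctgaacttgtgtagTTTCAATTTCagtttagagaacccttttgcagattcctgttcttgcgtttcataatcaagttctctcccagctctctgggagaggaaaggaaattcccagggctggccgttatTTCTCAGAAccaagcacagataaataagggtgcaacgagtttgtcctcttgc
Gbp7, chr3:142530086-142530335: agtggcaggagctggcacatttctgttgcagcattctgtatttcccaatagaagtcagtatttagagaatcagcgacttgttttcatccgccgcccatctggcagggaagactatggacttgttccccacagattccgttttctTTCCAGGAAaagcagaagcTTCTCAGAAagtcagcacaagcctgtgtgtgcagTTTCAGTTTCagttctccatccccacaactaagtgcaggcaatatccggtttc
In Gbp5 a GAS match lay on either side of the ISRE core, and in Gbp7 both GAS matches lay farther from the start than the ISRE core. A match describes the letters in the window and is not evidence of binding.

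**Figure D1:**
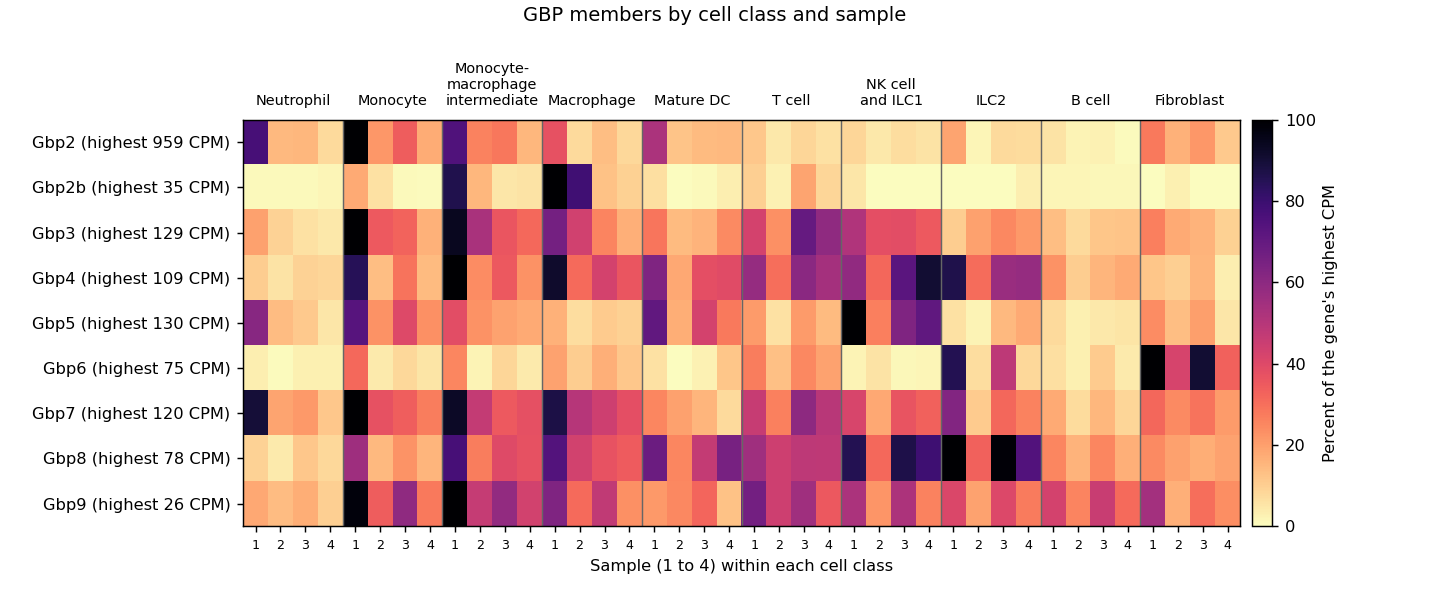
Heat map of the 9 members (rows) in the 10 cell classes read in all 4 samples (columns 1 to 4 within each class), coloured by CPM as a percent of that gene's highest value, which is printed beside its name. Gbp2 and Gbp7 are darkest in myeloid cells of sample 1, Gbp5 in NK/ILC1, Gbp6 in fibroblasts, Gbp8 in ILC2 and NK/ILC1, and Gbp2b in macrophages of samples 1 and 2 and in cells between monocytes and macrophages of sample 1.

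Summed over the family and among the classes read in all 4 samples, GBP transcripts were highest in monocytes in samples 1 and 3. They were highest in cells between monocytes and macrophages in sample 2 and in NK cells with type 1 innate lymphoid cells (NK/ILC1) in sample 4. Each member had its own order of classes. The summed family was at 1495, 367, 532 and 288 CPM in monocytes of samples 1 to 4, at 795, 310, 333 and 239.4 CPM in macrophages, and at 980, 208, 217 and 119 CPM in neutrophils. Cells between monocytes and macrophages held 1244, 471, 478 and 325 CPM. NK/ILC1 were at 475, 220.2, 401 and 398 CPM and T cells at 395, 201, 411 and 336 CPM. B cells were the lowest of the classes read in all 4 samples, at 166, 77.2, 121 and 83.6 CPM. The order among myeloid and lymphoid classes was not the same in every sample: neutrophils were above T cells in samples 1 and 2 and below them in samples 3 and 4. Among classes read in fewer samples, endothelial cells of sample 3, in which 66 cells were read, held 986 CPM, and epithelial cells held 50.8 CPM in sample 2 and 55.9 CPM in sample 4.

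Gbp2, an interferon-inducible member known to act on bacteria and parasite vacuoles, was highest by median in monocytes and in cells between monocytes and macrophages among the classes read in all 4 samples. Endothelial cells, read in sample 3 alone, held 411 CPM. Its level in monocytes was 959 CPM [943 to 975] in sample 1, 208 [192 to 224] in sample 2, 326 [317 to 336] in sample 3 and 165 [155 to 175] in sample 4. Cells between monocytes and macrophages held 716, 250.3, 272 and 146 CPM, neutrophils 741, 142, 142 and 72.3 CPM, and macrophages 360, 73.2, 128 and 75.4 CPM. Monocytes were thus above macrophages in each of the 4 samples, and sample 1 was the highest in each of these classes. Fibroblasts held 268, 155, 209 and 105 CPM and mature dendritic cells (DCs) 504, 119, 136 and 140 CPM. T cells were at 109.5, 41.5, 79.5 and 58.5 CPM, NK/ILC1 at 81.2, 44.9, 64.2 and 53.3 CPM, and B cells at 56.1, 22.1, 24.5 and 6.49 CPM. Of all GBP UMIs in a class, Gbp2 made up 60.7% to 75.7% in neutrophils and 56.5% to 64.2% in monocytes over the 4 samples, 23.7% to 45.2% in macrophages, 17.4% to 27.7% in T cells and 13.4% to 20.4% in NK/ILC1. Such ranges did not overlap between monocytes and macrophages, nor between macrophages and NK/ILC1. Free RNA can put transcripts of abundant cells into others. The macrophage genes C1qa, C1qb and C1qc were found in B cells at 0.413% to 1.35% of their macrophage level, and neutrophil genes at 0.265% to 0.686% of their neutrophil level. Gbp2 in B cells was at 3.94% to 10.6% of its monocyte level and 7.57% to 17.2% of its neutrophil level. These shares are not alike, because Gbp2 was held by several classes and the marker genes mainly by 1. The part of free RNA in the B cell level was not tested.

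Gbp5, which has been linked to assembly of the NLRP3 inflammasome, was highest in NK/ILC1, at 129.5 CPM [110 to 152] in sample 1, 34.8 [22.3 to 51.7] in sample 2, 81.6 [65.5 to 100] in sample 3 and 91.6 [71.0 to 116] in sample 4. NK/ILC1 stood above mature DCs in all 4 samples, beyond the intervals in 2 of them. Mature DCs followed, at 91.3, 22.2, 55.6 and 36.0 CPM, and then monocytes, at 95.05, 29.4, 51.9 and 30.3 CPM. Mature DCs and monocytes did not differ beyond their intervals in any sample. T cells held 27.3, 7.84, 27.0 and 18.3 CPM and macrophages 21.0, 8.96, 14.1 and 12.6 CPM. Gbp7, a close neighbour of Gbp5, was spread more evenly over macrophages (105.3, 59.96, 53.4 and 45.8 CPM), monocytes (120.4, 44.7, 40.5 and 32.8 CPM) and T cells (55.4, 31.7, 71.6 and 59.5 CPM). In neutrophils Gbp7 was at 108 CPM in sample 1 and at 13.8 to 25.5 CPM in the others.

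Gbp3, a further member of the chromosome 3 group, was at 55.3, 29.7, 90.0 and 76.5 CPM in T cells, at 129, 45.3, 42.3 and 20.9 CPM in monocytes and at 85.0, 56.1, 32.9 and 21.3 CPM in macrophages. T cells stood above both myeloid classes in samples 3 and 4 and below them in samples 1 and 2, so its order of classes was not shared by the samples. NK/ILC1 held 45.1 to 66.5 CPM and neutrophils 6.01 to 25.6 CPM.

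Gbp4 and Gbp8, the overlapping genes of chromosome 5, were highest by median in innate lymphoid cells among the classes read in all 4 samples. Endothelial cells, read in sample 3 alone, held 169.8 CPM of Gbp4 and 72.4 CPM of Gbp8. In sample 1 Gbp4 was higher still in cells between monocytes and macrophages, at 109 CPM. For Gbp4, NK/ILC1 held 63.9, 34.8, 78.8 and 98.4 CPM, type 2 innate lymphoid cells (ILC2) 94.0, 33.4, 61.8 and 62.7 CPM, and T cells 62.8, 33.0, 65.6 and 58.9 CPM. These 3 classes were followed by macrophages, at 99.7, 34.0, 46.6 and 39.1 CPM, and monocytes, at 91.8, 14.7, 31.6 and 15.5 CPM. Neutrophils held 11.1, 6.20, 10.1 and 8.96 CPM, so Gbp4 was low in the class in which Gbp2 was high. For Gbp8, ILC2 held 77.9, 25.7, 76.8 and 57.8 CPM and NK/ILC1 66.5, 24.6, 67.8 and 61.5 CPM. T cells were at 43.1, 34.6, 37.5 and 37.2 CPM, the narrowest spread of Gbp8 among these classes, and neutrophils at 3.28 to 9.06 CPM. Over 52 profiles of a class in a sample, from 17 classes, log2 levels of Gbp4 and Gbp8 correlated at r = 0.91, which is a description across profiles that share samples and, here, possibly reads. Gbp9, whose gene lies inside Gbp8, was low throughout, at no more than 26.4 CPM in any class read in all 4 samples.

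Gbp6 was highest in fibroblasts, at 75.4 CPM [58.0 to 96.5] in sample 1, 31.7 [21.2 to 45.5] in sample 2, 68.3 [58.9 to 78.8] in sample 3 and 25.0 [16.6 to 36.1] in sample 4. Endothelial cells of sample 3 held 68.2 CPM. ILC2 held 64.4, 5.14, 36.3 and 6.03 CPM, on 24, 2, 17 and 5 UMIs. T cells were at 20.6, 9.75, 18.6 and 14.5 CPM, whereas NK/ILC1 held 3 or fewer UMIs in each sample, or 0.917 to 4.34 CPM. Fibroblasts were the highest class by median, and the assignment of reads to Gbp6 is the least certain of the family. Gbp2b, formerly named Gbp1, was highest by median in macrophages, at 35.4 CPM [31.2 to 39.9] in sample 1, 27.8 [23.9 to 32.2] in sample 2, 4.44 [3.17 to 6.05] in sample 3 and 3.42 [2.17 to 5.13] in sample 4. Cells between monocytes and macrophages held 30.4, 5.25, 1.71 and 2.07 CPM, monocytes 6.24, 2.10, 0.354 and 0.148 CPM, and T cells 3.56, 0.898, 6.66 and 3.0 CPM, while neutrophils and B cells held under 1 CPM in every sample. Samples 1 and 2 were thus above samples 3 and 4 in macrophages and not in T cells, where sample 3 was the highest. No Gbp2b UMI was found in fibroblasts of samples 1, 3 and 4 or in NK/ILC1 of samples 2, 3 and 4.

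Whether members differed between classes was asked within each sample, so that the unknown genotype does not enter. A gene was counted as higher or lower where its fold was at least 2 in the same direction in each of the 4 samples, among genes with a mean of at least 10 CPM over both classes. Genes past that filter are called tested. Members under it were not counted, and only some of them are named. With 4 unassigned samples no p-value was computed, and the share of all genes counted by the same rule is given as the background. Comparisons that name macrophages share the same macrophages and are not independent of each other.

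**Figure D2:**
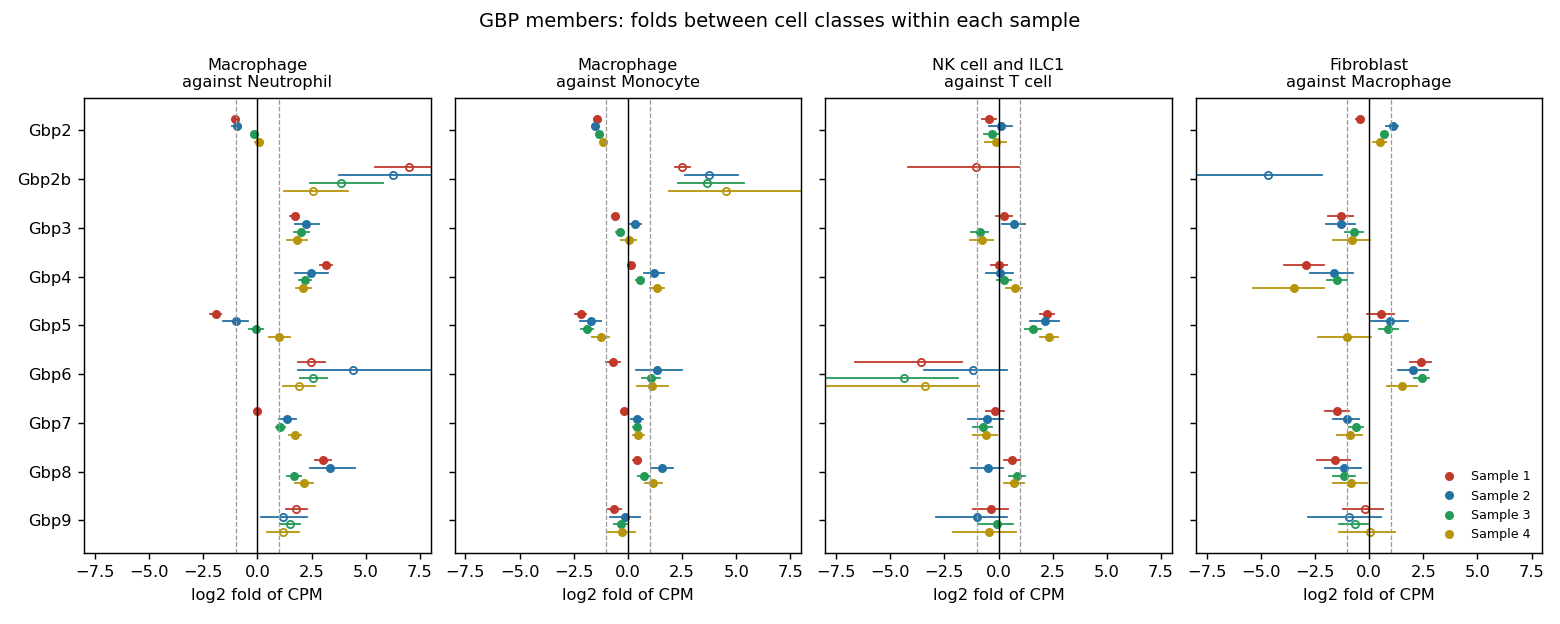
Log2 fold of CPM between 2 classes within each sample (colours) for each member, with 95% intervals from the counts that are cut at the panel edge, dashed lines at 2-fold and open circles for members under the level filter; points are left out where a class held no UMI. Gbp3, Gbp4 and Gbp8 lie right of the dashed line in macrophages against neutrophils, Gbp2 and Gbp5 left of it against monocytes, Gbp5 right of it in NK/ILC1 against T cells, and Gbp6 right and Gbp4 left of it in fibroblasts against macrophages.

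Macrophages held more Gbp3, Gbp4 and Gbp8 than neutrophils. The folds over the 4 samples were 3.31 to 4.81 for Gbp3, 4.36 to 8.96 for Gbp4 and 3.18 to 10.3 for Gbp8. These were 3 of the 6 members tested, none was lower, and 27.6% of all genes tested were higher and 8.64% lower. The median log2 fold of the 6 members was 1.497, against 0.57 over all genes tested. Gbp2 differed less, with folds of 0.485 to 1.04, and Gbp5 was lower in macrophages in sample 1 (fold 0.266) and higher in sample 4 (fold 2.01). With graph-based clusters in place of the marker gates, Gbp3 was no longer counted, with a median log2 fold of 1.35 in place of 1.80. Gbp2b, Gbp6 and Gbp9 were at least 2 times higher in macrophages in each sample but lay under the level filter. Of 13 tested genes known to be induced by interferon-gamma outside the GTPase families, 4 were higher in macrophages (Irf8, Cxcl9, Psmb8 and Fcgr1) and none was lower. Of 4 tested immunity-related GTPases, a sister family that acts on the same vacuoles, Iigp1 and Gm4951 were higher, and of 8 tested genes induced by type I interferon, Oas2 and Oas3 were lower.

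Against monocytes, macrophages held less Gbp2 and less Gbp5. Gbp2 was at 0.353 to 0.457 and Gbp5 at 0.221 to 0.417 of the monocyte level over the 4 samples. They were 2 of 8 members tested, none was higher, and the background was 1.68% lower and 3.22% higher. With graph-based clusters Gbp2 was no longer counted, although its median log2 fold was -1.38 with the gates and between -1.41 and -1.35 over 12 alternatives. Gbp4 (folds of 1.09 to 2.52) and Gbp8 (folds of 1.33 to 2.95) pointed the other way in all 4 samples without reaching a fold of 2 in each. Gbp2b was 5.67 to 23.1 times higher in macrophages, just under the level filter, with 1, 5, 7 and 91 UMIs in monocytes of samples 4, 3, 2 and 1. Without sample 3 or without sample 4, 1 member was counted as higher in macrophages. The median log2 fold of the members tested was 0.12 and that of all genes 0.09. Of 14 genes of the interferon-gamma list, only Nos2, the inducible nitric oxide synthase, was counted, as lower in macrophages.

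In the comparison with lymphocytes, macrophages held more Gbp2 (3.32 to 11.6 times), Gbp4 (2.01 to 4.01 times) and Gbp7 (2.97 to 6.99 times) than B cells. They were 3 of 7 members tested, against a background of 15.5% higher and 20.3% lower, with none lower. The count rose to 5 without sample 3 and to 6 without sample 4. These samples held the fewest B cells, 319 and 421, and the part of cell number in the count was not tested. Gbp4 was not counted when each cell was scaled before averaging. Gbp2b and Gbp6 lay under the level filter, with B cells at 1.74% to 12.7% and 27.1% to 64.6% of the macrophage level. Against T cells, none of the 9 members was counted in either direction, where 13.3% of all genes were higher and 16.5% lower. Gbp6 (folds of 0.595 to 0.792) and Gbp9 (folds of 0.656 to 0.95) were lower in macrophages than in T cells in all 4 samples and Gbp2 higher (folds of 1.29 to 3.28), each without reaching 2 in every sample.

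Between lymphoid classes, chosen for comparison after the levels had been seen, NK/ILC1 held 3.02 to 5.01 times as much Gbp5 as T cells. It was the only member counted of 7 tested, and the background was 3.27% higher and 3.04% lower. In the same cells Ifng, the gene of interferon-gamma, was counted as higher than in T cells, and Ifngr2 and Irf9, a receptor chain and a signalling partner of interferons, as lower. Gbp6 lay under the level filter, with NK/ILC1 at 0.0493 to 0.445 of the T cell level. ILC2 and T cells showed no member counted of 8 tested, against a background of 4.22% higher and 4.01% lower. Without sample 2, Gbp3 was counted as lower in ILC2.

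The stromal and DC comparisons were likewise chosen after the levels had been seen. Fibroblasts held 2.90 to 5.40 times as much Gbp6 as macrophages and 0.0913 to 0.359 of their Gbp4. Of 7 members tested, 1 was thus higher and 1 lower, against a background of 16.6% higher and 12.4% lower, so both counts were near the share of all genes. The count of members lower rose from 1 to 2 without sample 3 and to 3 without sample 4. Mature DCs held 2.48 to 4.35 times as much Gbp5 as macrophages and 0.197 to 0.393 of their Gbp7, neighbouring genes that went in opposite directions. Of 6 members tested, 1 was thus higher and 1 lower, against a background of 10.5% higher and 11.2% lower, so both counts were again near the share of all genes. Without sample 3 or without sample 4, 2 members were lower. Gbp5 was not counted with graph-based clusters, although its median log2 fold was 1.67 with the gates and between 1.44 and 2.21 over 12 alternatives. On the interferon-gamma list, 7 of 14 genes tested were higher in mature DCs (among them Irf1, Irf8, Socs1, Cd274, Psmb8 and Psmb9) and 2 lower (Nos2 and Fcgr1).

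**Figure D3:**
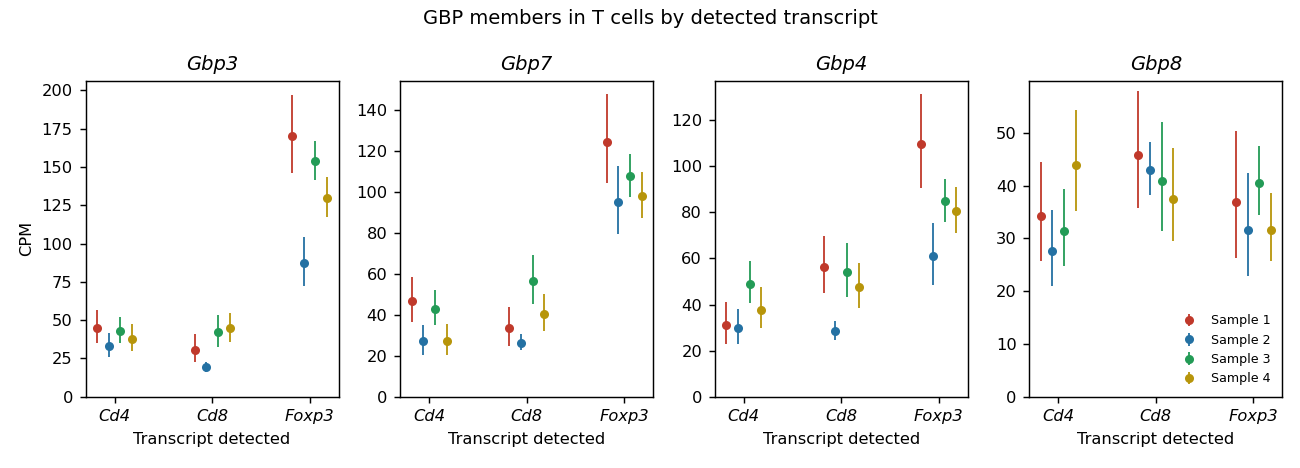
CPM of 4 members in T cells with a UMI of Cd4, of Cd8a or Cd8b1, or of Foxp3, in each sample (colours), with 95% exact Poisson intervals. For Gbp3 and Gbp7 the Foxp3-positive points of all samples lie above all others, and for Gbp8 the 3 sets overlap.

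Among T cells, those with a UMI of Foxp3, the transcription factor of regulatory T cells, held more Gbp3 and Gbp7 than those with a UMI of Cd4 and none of Foxp3. For Gbp3, Foxp3-positive cells held 170.2, 87.4, 154 and 130 CPM and Cd4-positive cells 44.8, 33.0, 42.7 and 37.8 CPM. For Gbp7, the levels were 125, 95.3, 108 and 98.2 CPM against 46.6, 27.1, 43.1 and 27.1 CPM. In both genes the lowest Foxp3-positive value was above the highest Cd4-positive value, and the share of all genes that separate in this way was not computed. The folds were 2.65 to 3.80 for Gbp3 and 2.497 to 3.63 for Gbp7, 2 of 8 members tested, against a background of 0.829% higher and 0.754% lower. Gbp2 (1.49 to 2.004), Gbp4 (1.73 to 3.53), Gbp5 (1.29 to 3.97) and Gbp6 (1.28 to 5.50) were higher in all 4 samples without reaching 2 in each, and without sample 3 the count was 4. Gbp8, in contrast, held 36.9, 31.5, 40.5 and 31.7 CPM against 34.2, 27.5, 31.4 and 43.9 CPM, with folds on both sides of 1. The median log2 fold was 1.14 over the 8 members and 0.07 over all genes tested. Against T cells with a UMI of Cd8a or Cd8b1, Foxp3-positive cells held more Gbp3 (2.91 to 5.53 times) and Gbp6 (2.07 to 7.44 times), 2 of 8 members tested, where 3% of all genes were higher and 1.9% lower. These sets held 91 to 219 Foxp3-positive, 184 to 297 Cd4-positive and 154 to 960 Cd8-positive cells per sample. Foxp3-positive cells were also sequenced deeper, with medians of 8425 to 11279 UMIs per cell against 5149 to 8306 in Cd4-positive cells, and the part of depth in the difference was not tested. Ifng was at 3.78 to 28.7 CPM in the Foxp3-positive cells. The comparison was chosen after values of the T cell subsets had been seen.

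Between samples the members moved together in myeloid cells, with sample 1 the highest. The highest sample was at least 2 times the lowest for 7 of 7 members tested in monocytes, for 8 of 9 in macrophages and for 4 of 4 in neutrophils, against 12.6%, 15.2% and 18.9% of all genes tested in these classes. Each of these 19 pairs of a member and a class had its highest level in sample 1, a pattern shown by 3.85% of genes in monocytes, 3.31% in macrophages and 2.94% in neutrophils. The median ratio of highest to lowest was 3.80 for the members and 1.41 for all genes in monocytes, 2.73 and 1.44 in macrophages, and 9.03 and 1.55 in neutrophils. In macrophages Gbp6 was the exception, with a ratio of 1.88. Without sample 1, the counts were 3 in monocytes, 2 in macrophages and 1 in neutrophils, so most of the counts rested on that sample. Samples 2, 3 and 4 also differed among themselves to a degree that varied by member. Gbp7 in macrophages was at 59.96, 53.4 and 45.8 CPM there, while Gbp5 in monocytes was at 29.4, 51.9 and 30.3 CPM. The classes differed in make-up between samples when cells were grouped by graph-based clustering. One cluster held 41.0% of neutrophils in sample 1 and 1.14% to 2.01% in the others, another 4.26% of monocytes in sample 1 and 11.01% to 42.9% in the others, and a further one 7.86% of macrophages in sample 1 and 22.8% to 48.6% in the others. Within single clusters that held at least 50 cells of the class in every sample, a view added after the data were seen, each member tested was again at least 2 times apart with sample 1 highest: 7 of 7 in both monocyte clusters, 7 of 7 and 9 of 9 in 2 macrophage clusters, and 6 of 6 and 2 of 2 in 2 neutrophil clusters. Gbp2 was at 809, 198, 362 and 187 CPM in the larger monocyte cluster. The share of all genes counted within a cluster was not computed, so these counts have no background. Some sets were small, with 62 and 58 cells of samples 1 and 2 in the other monocyte cluster. These clusters were formed from the same cells' genes, and the part of make-up in the spread was not tested. The genotype of sample 1 is not known and nothing is drawn from its place.

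**Figure D4:**
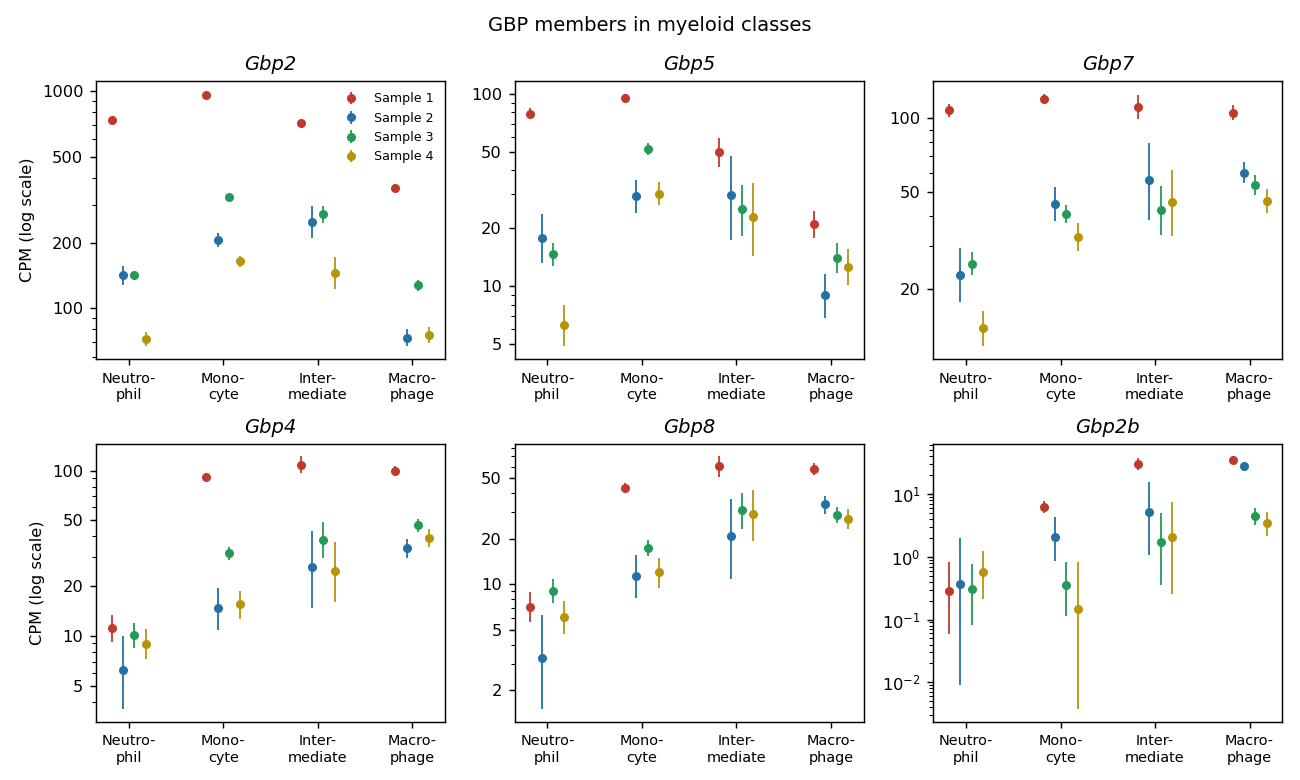
CPM on a log axis of 6 members in neutrophils, monocytes, cells between monocytes and macrophages, and macrophages of each sample (colours), with 95% exact Poisson intervals. Sample 1 is the highest in monocytes and macrophages for each gene shown, Gbp2 and Gbp5 are lower in macrophages than in monocytes, and Gbp2b is at 35.4 and 27.8 CPM in macrophages of samples 1 and 2 against 4.44 and 3.42 CPM in samples 3 and 4.

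In T cells the spread was of another shape, with 5 of 8 members at a ratio of at least 2 (background 13.3%) and sample 2 the lowest in all 5. Sample 1 was the highest in 3 of them (background 1.51%) and sample 3 in the others, Gbp3 and Gbp7. Without sample 2 no member was counted and without sample 1 there were 3. The T cells of sample 2 also differed in make-up, with 960 Cd8-positive and 127 Foxp3-positive of 2301 cells, against 154 and 219 of 813 in sample 3. Within the Foxp3-positive set, Gbp3 was again lowest in sample 2. Gbp7 was at 95.3 CPM [79.8 to 113] in sample 2 of that set and at 98.2 CPM [87.5 to 110] in sample 4, with intervals that overlapped. Within single clusters 3 of 9, 3 of 6 and 2 of 8 members tested were counted, with no background computed. The part of make-up in the spread was not tested further. Gbp8 in T cells was the steadiest, with a ratio of 1.24. In B cells 3 of 5 members were counted (background 8.05%), all with sample 1 highest (background 1.17%). Within single B cell clusters 2 of 3, 3 of 4 and 5 of 5 were counted, again with no background computed. Sample 1 was the highest in 1, 3 and 2 of these.

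Other genes of the interferon response were read beside the family in the same cells. In monocytes, 10 of 13 tested genes of the interferon-gamma list had a ratio of at least 2 (background 12.6%), 9 of them with sample 1 highest (background 3.85%), as had both tested immunity-related GTPases, Irgm1 and Igtp. The interferon-gamma list had 8 of 14 counted in macrophages (background 15.2%), 5 with sample 1 highest. In neutrophils 10 of 12 were counted (background 18.9%), 9 with sample 1 highest. In B cells 5 of 10 were counted and in T cells 0 of 10, where 5 of 8 GBP members were. Other interferon genes were counted in T cells too: 4 of 4 tested type I interferon genes and 3 of 4 tested immunity-related GTPases, 3 of each with sample 1 highest (backgrounds 13.3% and 1.51%). Cxcl9, a chemokine induced by interferon-gamma, was at 608, 81.1, 68.6 and 31.2 CPM in monocytes. Among genes induced by type I interferon, 6 of 8 tested were counted in monocytes, 4 with sample 1 highest. In macrophages 6 of 8 were counted, 4 with sample 1 highest, and in neutrophils 8 of 9, all with sample 1 highest. The spread was thus seen in both lists. None of the 10 tested interferon receptor and signalling genes was counted in monocytes or in macrophages: Ifngr1, a receptor chain for interferon-gamma, was at 174, 217, 129 and 189 CPM in monocytes. In neutrophils 3 of 11 were counted (Ifnlr1 and Irf9 among them). Of the 8 inflammasome partners, including Casp1, Nlrp3 and Gsdmd, 1 was counted in monocytes (Pycard), 1 in macrophages (Gsdmd) and 3 in neutrophils (Casp1, Nlrp3 and Il18). With backgrounds of 12.6%, 15.2% and 18.9%, the counts of 1 in monocytes and in macrophages were near the share of all genes. Transcripts of the cytokine itself were highest in lymphoid cells and at 1.37 to 3.0 CPM in monocytes. Ifng in NK/ILC1 was at 1970 CPM [1890 to 2052] in sample 1, 326 [285 to 371] in sample 2, 310 [278 to 345] in sample 3 and 589 [535 to 648] in sample 4. In T cells it was at 233, 42.4, 35.3 and 36.0 CPM, and in Cd4-positive T cells at 833, 93.4, 53.6 and 46.5 CPM. Sample 1 was thus the highest for Ifng in both classes, as for the members in myeloid cells, and whether these go together in mice was not tested with 4 samples.

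**Figure D5:**
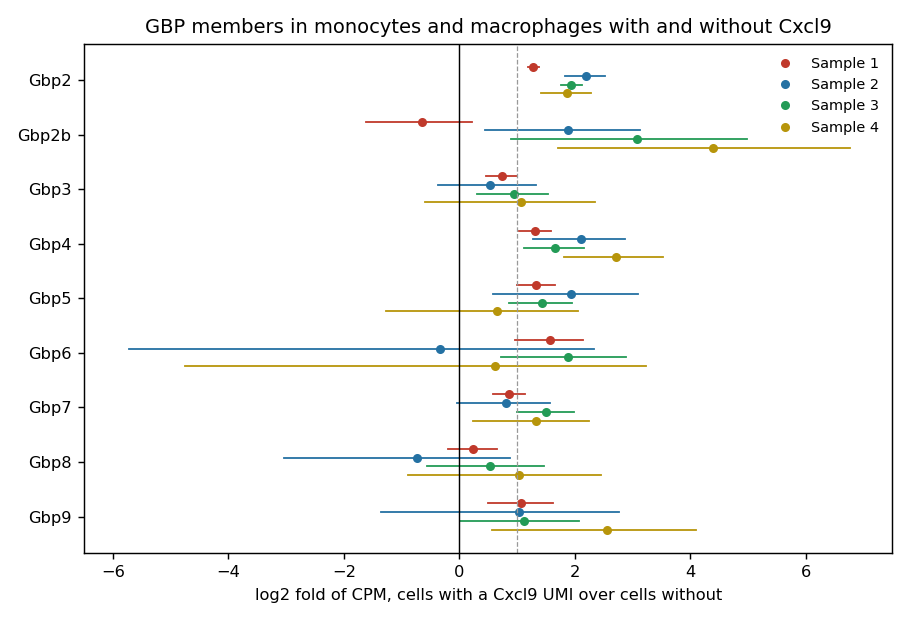
Log2 fold of CPM between cells with and without a Cxcl9 UMI among thinned monocytes, macrophages and cells between them, for each member and sample (colours), with 95% intervals from the counts and a dashed line at 2-fold. Gbp2, Gbp4 and Gbp9 lie right of the line in all 4 samples, and the intervals of Gbp8 span 0.

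Within the monocytes, macrophages and cells between them, single cells were split by whether they held a UMI of Cxcl9, after each was thinned to 2000 UMIs so that depth could not set detection. Cxcl9 was found in 488 of 2488 cells of sample 1 (19.6%), 93 of 1419 of sample 2 (6.55%), 172 of 3086 of sample 3 (5.57%) and 55 of 1989 of sample 4 (2.77%). Gbp2 and Gbp4 were higher in the Cxcl9-positive cells of each sample. Gbp2 was at 1415, 500, 881 and 473 CPM with Cxcl9 and at 582, 109.7, 229.8 and 130.3 CPM without it, folds of 2.43, 4.56, 3.83 and 3.63. Gbp4 was at 178, 102, 110.5 and 136 CPM with Cxcl9 and 72, 23.8, 35.0 and 20.7 CPM without, folds of 2.48, 4.30, 3.16 and 6.59. Gbp9 also passed, with folds of 2.04 to 5.86, but on 3 and 4 UMIs in the Cxcl9-positive cells of samples 2 and 4, and its interval in sample 2 (0.389 to 6.82) held 1. Its call was lost under 8 of 13 alternatives, and that of Gbp4 was lost when cells were thinned to 1000 UMIs. These were 3 of 9 members tested, where 0.266% of all genes (19 of 7142) were counted, and the median log2 fold was 1.08 for the members and -0.04 for all genes. Beside the members and Cxcl9 itself they included Nos2, Ccl5, Cfb, Serpina3g and Ifi47. The median log2 fold was 0.72 over 12 tested genes of the interferon-gamma list, Cxcl9 left out, of which Nos2 was counted. It was 1.13 over 10 tested genes induced by type I interferon, of which Ifit2 was counted, and 0.88 over 4 tested immunity-related GTPases, of which none was. Gbp3 (1.45 to 2.09), Gbp5 (1.56 to 3.80) and Gbp7 (1.75 to 2.83) were higher in all 4 samples without reaching 2 in each. Gbp2b (0.642 to 21.1) and Gbp6 (0.792 to 3.68) were higher in 3 samples. Gbp2b was lower with Cxcl9 in sample 1 and Gbp6 in sample 2, where the Cxcl9-positive cells held 1 UMI of Gbp6. Gbp8 was at 0.602 to 2.04 of the level without Cxcl9, with intervals that held 1 in every sample, so no difference was detectable at this depth. The Cxcl9-positive cells held 64.3% monocytes against 55.3% of the negative cells in sample 1, 29.0% against 34.5% in sample 2, 57.6% against 60.4% in sample 3 and 38.2% against 47.2% in sample 4. Within monocytes alone, samples 1 and 3 had at least 50 positive cells, and the folds there were 2.09 and 3.65 for Gbp2 and 3.38 and 3.38 for Gbp4. When cells were split by Cxcl10 in place of Cxcl9, Gbp5 was the only member counted, with folds of 2.97 to 4.21, and Gbp2 was at 0.922 to 1.93.

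The share of cells with at least 1 GBP UMI, after thinning to 2000 UMIs, was 81.3%, 37.6%, 45.0% and 29.7% in monocytes, 68.6%, 37.0%, 38.5% and 27.7% in macrophages and 62.0%, 19.0%, 24.3% and 16.7% in neutrophils of samples 1 to 4. T cells held 45.4%, 28.9%, 47.8% and 38.5% and NK/ILC1 58.9%, 31.4%, 45.8% and 42.9%. B cells held 19.8%, 11.2%, 17.4% and 10.6%, and epithelial cells 13.8% and 5.80% in samples 2 and 4. Unthinned, the monocyte shares were 94.99%, 57.7%, 67.2% and 51.9%, and the B cell shares 45.5%, 29.0%, 39.2% and 28.3%, at median depths of 6077 to 9508 and 4108 to 5405 UMIs. With 95% exact binomial intervals, monocytes of sample 1 (79.1% to 83.3%) lay above those of sample 3 (42.7% to 47.3%).

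The genes whose levels most resembled the summed family over the 52 profiles were Ifi47 (r = 0.83), Parp14 (0.77), Cxcl10 (0.76), Parp10 (0.70), Tapbp (0.69), Gadd45b (0.67), Slfn8 (0.67), Isg15 (0.66), Pcnx (0.64) and Rbms1 (0.64), among 8466 genes compared by Pearson correlation of log2(CPM + 1). Ifi47 is an immunity-related GTPase, Isg15 and Cxcl10 are interferon-induced and Tapbp serves loading of MHC class I. Between members the correlations ran from 0.12 for Gbp5 and Gbp6 to 0.91 for Gbp4 and Gbp8, with 0.79 for Gbp3 and Gbp7 and 0.73 for Gbp2 and Gbp7. Profiles of one sample share a library, and profiles differ in cell number and depth, so these values describe the tables and carry no test.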

How the data were processed

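Single-cell libraries (10x) of CD45+ colon cells from 4 samples were used. The authors deposited matrices of raw UMI counts per gene and cell, made with Cell Ranger on mm10: the submitters' processing notes name version 5.0.0, while the matrix header names 7.0.1, and whether intronic reads were counted is not stated in the sources used here. No normalization had been applied to the counts.

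Cells with at least 200 genes and at most 20% mitochondrial UMIs were kept, and 0.8% of cells per 1000 cells in a sample were removed as doublets by score (scanpy 1.11.5). A cell entered a class at a mean marker score of at least 0.3 with at least 3 markers detected and a margin over other classes. UMIs were summed per class and sample and scaled to CPM. Intervals are 95% exact Poisson, conditional binomial for folds, and cover counting error only; a share of cells has an exact binomial interval. Median log2 folds use log2(CPM + 1). All 4 samples lack a genotype in the labels, so no group was formed and no p-value was computed. A mean over samples served only the level filters, and an SD over samples only as the spread against which alternatives were judged. Whether samples are biological replicates of one group is therefore not known.

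All 9 members were reported, so no gene among them was selected by its values. The members and gene lists were chosen with earlier results of these data known. The marker scoring rule was set after class sizes and GBP values had been seen, and the NK/ILC1, ILC2, fibroblast, mature DC and T cell subset comparisons were chosen after the levels had been seen. Foxp3-positive cells had no Cd8a or Cd8b1 UMI, Cd4-positive cells no Foxp3, Cd8a or Cd8b1 UMI, and Cd8-positive cells no Cd4 UMI. The code was tested on simulated data. Cxcl11, Mx1 and Mx2 were not analysed here. Sequences are from RefSeq (GRCm38.p6) and gene positions from GENCODE (GRCm38). Python 3.11.15, numpy 2.4.6, scipy 1.17.1 and pandas 2.3.3 were used.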

Additional observations from a re-analysis of the deposited data

How the results depend on the processing

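Classes were compared within each sample and are paired by that design. No paired analysis of groups was possible because the labels put the 4 samples in no group, and no test was run over them as replicates. The alternatives changed cell filters, doublet removal, gates, graph-based (Leiden) clusters, scaling, thinning, the level filter, the fold and the samples used. Family levels by class moved by less than the spread between samples (SD) under 96 of 96 alternatives, member levels under 767 of 783 and member folds under 928 of 963. That spread was wide, with the family at 288 to 1495 CPM in monocytes. It is a loose yardstick, and a large change in level could pass it. The exceptions among the counts of members follow, and the cause was not tested.

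Macrophages against neutrophils had 6 members higher with no filter on CPM. Against monocytes, 1 was higher with at least 500 genes per cell, a stricter gate, Leiden clusters, scaled cells or no filter, and 1 was lower with Leiden clusters. With no filter, members lower were 2 in NK/ILC1 against T cells, 1 in ILC2 against T cells, 2 in fibroblasts against macrophages and 2 in mature DCs against macrophages. For fibroblasts there were 2 with Leiden clusters and 4 at a fold of 1.5, and for mature DCs 0 were higher with Leiden clusters. Leaving out 1 sample at a time gave 0 to 1 higher against monocytes, 3 to 6 higher against B cells, 0 to 1 lower in ILC2, 1 to 3 lower in fibroblasts and 1 to 2 lower in mature DCs. For the spread between samples it gave 3 to 8 members in monocytes, 2 to 8 in macrophages, 1 to 4 in neutrophils and 0 to 5 in T cells. Macrophages had 5 with Leiden clusters, and B cells 5 with a stricter gate, Leiden clusters or a fold of 1.5. Splitting by Cxcl10 gave 1 member higher, Gbp5, and none of the 3 of the Cxcl9 split. Foxp3-positive against Cd4-positive T cells gave 2 to 4 with 1 sample left out, and against Cd8-positive cells 6 at a fold of 1.5. Median shares of cells with a GBP UMI were 66.3% in macrophages, 79.2% in NK/ILC1, 72.4% in T cells and 34.1% in B cells without thinning, and 24.9% in T cells and 7.96% in B cells thinned to 1000 UMIs. Thinned to 1000 UMIs, the median log2 fold of Gbp9 in the Cxcl9 split turned to -0.35. Under the stricter gate, mature DC, ILC2, fibroblast and intermediate levels, and the ILC2 and fibroblast comparisons, were not made for want of 50 cells. Macrophages against cDC2 and cDC1 against cDC2 had only 2 samples and endothelial cells against fibroblasts 1, so these were not compared.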

Other observations

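The 4 samples, which the labels put in no group, fell apart for Gbp2b in macrophages: 35.4 CPM in sample 1 and 27.8 CPM in sample 2, against 4.44 CPM in sample 3 and 3.42 CPM in sample 4, with intervals that did not overlap between these pairs. Gbp3 had the same order with a smaller gap, at 85.0 and 56.1 CPM against 32.9 and 21.3 CPM. Gbp2 did not, with 360 CPM in sample 1 and 73.2, 128 and 75.4 CPM in the others. The macrophages of the samples lay in different clusters in part, with one cluster holding 65.0%, 40.2%, 41.7% and 20.3% of them and another 7.86%, 48.6%, 22.8% and 42.6%. Within these clusters Gbp2b was at 35.1, 29.7, 4.59 and 2.85 CPM and at 73.3, 29.0, 7.26 and 4.31 CPM. The difference was noticed in the data and was not tested. The intervals cover counting error only, and the share of all genes that split the samples in this way was not computed. No grouping of the samples is drawn from it.

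Gbp2b was also found in T cells with a Foxp3 UMI, at 18.9, 2.87, 11.2 and 5.76 CPM in samples 1 to 4, on 20, 4, 43 and 18 UMIs. T cells with a Cd4 UMI and no Foxp3 held 1.86, 2.26, 2.09 and 0 CPM, on 5 or fewer UMIs each, and T cells with a Cd8a or Cd8b1 UMI 0.655, 0, 2.51 and 1.52 CPM. The 0 in Cd4-positive cells of sample 4 allows up to 1.88 CPM by the exact Poisson interval.

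Conventional DCs, read in samples 1 and 2 alone, held 234 and 51.5 CPM of the family in type 1 and 505 and 170.3 CPM in type 2. Plasma cells held 205, 86.0 and 241 CPM in samples 1 to 3, type 3 innate lymphoid cells, a gate that takes in cells with Trdc, 166 CPM in sample 4, and mast cells 49.2 CPM in sample 2.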
